A study of Homo sapiens with 2 samples.

Results

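The Dickkopf (DKK) family and the Kremen receptors were examined on Affymetrix arrays of neuroblastoma cells in which the long noncoding RNA linc00467 had been targeted with siRNA. The members were the genes DKK1, DKK2, DKK3, DKK4, DKKL1, KREMEN1 and KREMEN2, taken by their gene symbols in the platform annotation. All 7 had exactly 1 named probe set each, out of 16098 named probe sets of 14884 genes.

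BE(2)-C, a human neuroblastoma cell line with MYCN amplification, was transfected with control siRNA or with linc00467 siRNA, and RNA was taken from both cultures 48 hours later. There was 1 HuGene-2_0-st array for control siRNA and 1 for linc00467 siRNA, so that every value stands without replicate, error or test, and an effect of the siRNA cannot be told apart from any other difference between the 2 cultures or hybridizations. The study's methods name scrambled control siRNA (AllStars) and, for the array, a single linc00467 siRNA (siRNA-1), so that an effect on linc00467 cannot be told apart here from an effect of that one oligonucleotide on other RNAs. Labels and methods give different culture media (RPMI and Dulbecco's modified Eagle's), and one label calls the target lncMycN.

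DKK proteins are secreted regulators of Wnt signalling, a pathway in which Wnt ligands bring a Frizzled receptor and the co-receptor LRP5 or LRP6 together and so stabilize beta-catenin. DKK1 binds LRP5 and LRP6 and keeps them out of that complex, and the Kremen receptors bind DKK1 on the same cell surface and help to remove LRP6 from it. DKK1 is itself a target gene of beta-catenin in many tissues and thus acts as a feedback inhibitor, and in neuroblastoma DKK1 and DKK3 have been described as genes held down by N-Myc.

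DKK1 was 1.85 fold higher with linc00467 siRNA, while each of the other 6 genes differed by less than 1.2 fold between the arrays. Of these 6, DKK3 and KREMEN1 were slightly higher, DKKL1 was slightly lower, and DKK2, DKK4 and KREMEN2 had exactly the same value on both arrays. One of 7 members was thus past 1.2 fold in either direction, beside 18.3% of all named probe sets, and 1 of 7 was past 1.8 fold, the cut-off used in the study, beside 0.801% in either direction and 0.224% upward. DKK1 was taken up in the study from the genes past that cut-off on these same 2 arrays, so its count is a description and supports nothing. The median log2 difference was 0.00 over the 7 members, over the 6 without DKK1, and over all named probe sets. Both member medians were set by the exactly equal values of DKK2, DKK4 and KREMEN2, so no lack of change can be read from them.

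**Figure D1:**
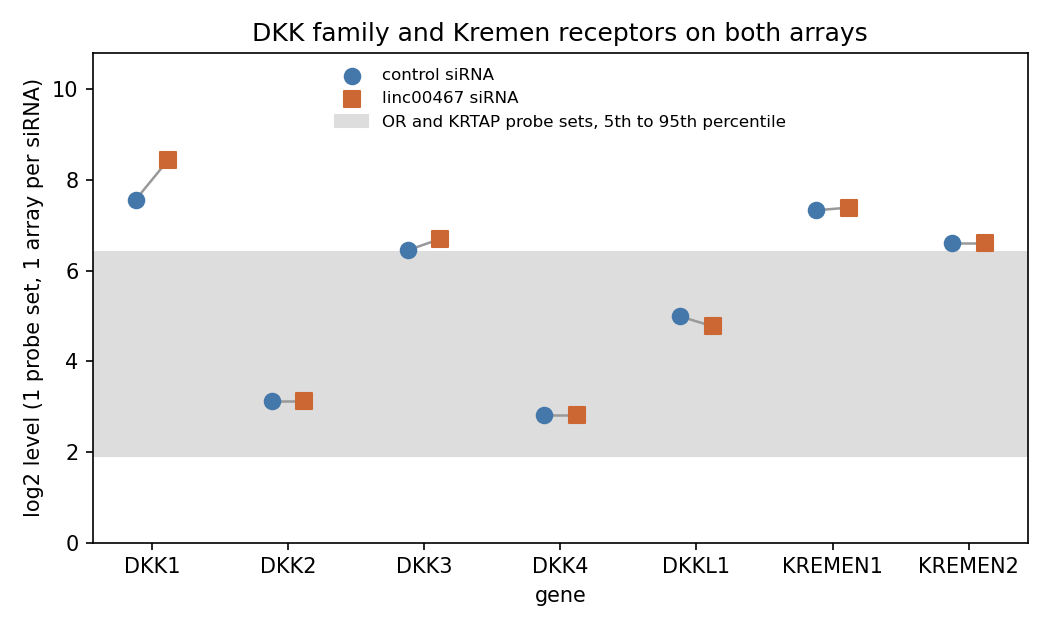
Log2 level of the 1 probe set of each gene on the control siRNA array (circles) and the linc00467 siRNA array (squares), with the 5th to 95th percentile of 86 olfactory receptor and keratin-associated protein probe sets in grey. DKK1 is the gene with the visible step, from 7.56 to 8.44, and the points of DKK2, DKK4 and KREMEN2 lie at the same height.

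The targeted RNA, LINC00467, had 0.543 times its control signal on the linc00467 siRNA array, with log2 levels of 6.55 (control siRNA) and 5.67 (linc00467 siRNA). Of 12 measured neuroblast markers, all 12 had levels above the 95th percentile of the 86 olfactory receptor (OR) and keratin-associated protein (KRTAP) probe sets, genes taken as silent in these cells, on both arrays. Among them HAND2, a transcription factor of sympathetic neuroblasts, had log2 levels of 11.09 and 10.96. None of 4 Schwann cell markers, none of 4 endothelial markers and 1 of 4 blood cell markers (CD68, a lysosomal protein) had such a level. Of 9 measured mesenchymal markers, 3 had such a level, among them SNAI2 with log2 levels of 11.43 and 11.76. The level of LINC00467 lay little above that percentile with control siRNA (6.41) and under it with linc00467 siRNA (6.38). Of all named probe sets, 0.578% were lower by at least 1.8 fold.

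DKK1, the founding Wnt antagonist of the family, was the member that differed most. Its probe set (16705011, chromosome 10) had log2 levels of 7.56 (control siRNA) and 8.44 (linc00467 siRNA). This was a log2 difference of 0.88, or a linear signal of 188.5 against 348.0. Both levels lay above 85 of the 86 OR and KRTAP probe sets, which describes a bright probe set but measures no RNA amount, since probe sets differ in affinity. When the named probe sets were split by mean level into 4 bins of near-equal size, DKK1 fell in the brightest bin, where 11 of 4025 probe sets, DKK1 included, had a log2 difference at least as high. In that bin 0.373% of probe sets were higher by at least 1.8 fold and 1.04% were lower by as much, and the robust SD of the differences was 0.199. In bulk RNA such as this, more RNA per cell and more cells that make the RNA cannot be told apart.

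The sequence before the DKK1 start is shown because DKK1 is the member that differed, and that before DKKL1 because it is the only other member in the promoter table used here and lay in the opposite direction. The stretches are the 250 bases before the start in RefSeq (GRCh38.p14), DKK1 at chr10:52314031-52314280 and DKKL1 at chr19:49363627-49363876, both on the plus strand and written 5′ to 3′, with matches to the motifs searched in capitals.
DKK1: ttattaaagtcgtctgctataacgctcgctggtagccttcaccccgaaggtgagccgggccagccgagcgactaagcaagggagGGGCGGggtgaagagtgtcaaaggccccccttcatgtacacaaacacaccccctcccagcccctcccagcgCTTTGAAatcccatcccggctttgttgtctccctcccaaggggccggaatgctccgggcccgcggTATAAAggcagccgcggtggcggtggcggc
DKKL1: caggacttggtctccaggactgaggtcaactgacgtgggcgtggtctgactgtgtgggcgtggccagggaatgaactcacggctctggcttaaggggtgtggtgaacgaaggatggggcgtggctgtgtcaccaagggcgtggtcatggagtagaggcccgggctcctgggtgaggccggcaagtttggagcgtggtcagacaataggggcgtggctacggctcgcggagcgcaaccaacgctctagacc

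The DKK1 stretch held 1 match to GGGCGG, the GC box read by Sp1, beginning 166 bases before the start, and 1 match to TATAAA, the TATA box, beginning 30 bases before it. It also held 1 match to CTTTGAA, one spelling of the site of the TCF/LEF factors that partner beta-catenin, beginning 95 bases before the start. No match overlapped another. On both strands, GGGCGG was present in 42.6%, TATAAA in 10.7% and CTTTGAA in 3.80% of the 35116 stretches of the same length in the table. CACGTG, the E-box of Myc-Max dimers, was in 6.34% of them and CTTTGAT, another spelling of the TCF/LEF site, in 2.26%, and neither was in the DKK1 stretch. The DKKL1 stretch held none of the 5 motifs, although its share of G and C was the same as that of DKK1, 62.8%, against a median of 58.0% over the table. TATAAA and the TCF/LEF spellings were chosen after the sequences had been seen, so the shares beside their matches test nothing. No other spelling of the TCF/LEF site was searched. These letters are a description of the DNA and were not set against any measured binding.

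**Figure D2:**
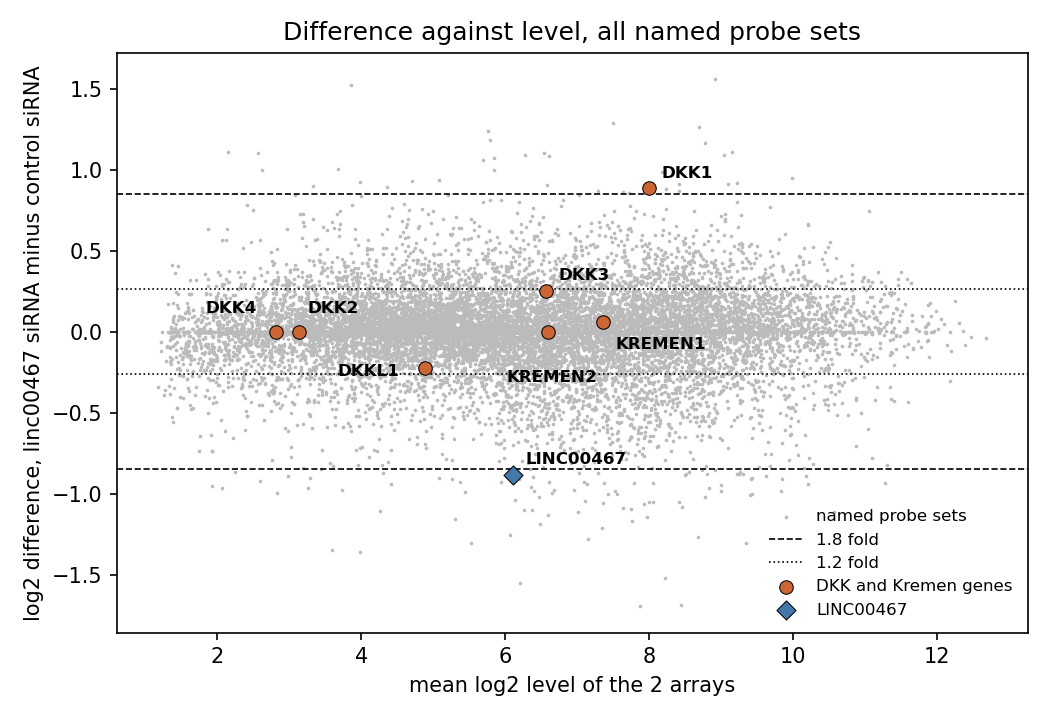
Log2 difference, linc00467 siRNA minus control siRNA, against the mean log2 level of the 2 arrays, for 16098 named probe sets (grey), the 7 DKK and Kremen genes (orange) and LINC00467 (blue diamond), with lines at 1.2 and 1.8 fold. DKK1 lies at 0.88 above the upper 1.8-fold line, LINC00467 at -0.88 below the lower one, and the other 6 genes lie between the 1.2-fold lines.

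DKK3, a divergent family member that is not a classical LRP6 antagonist, came next to DKK1 in size of difference. Its probe set (16735895, chromosome 11) had log2 levels of 6.45 (control siRNA) and 6.70 (linc00467 siRNA), a log2 difference of 0.25. These levels were at or above 82 and 83 of the 86 OR and KRTAP probe sets, little above their 95th percentile (6.41 and 6.38). The fold of 1.19 lay just short of 1.2 fold, and 391 of 4024 named probe sets of the same bin of level, 9.72%, had a difference at least as high. Under quantile normalization of the 2 arrays the log2 difference of DKK3 was 0.30, and under a lowess correction it was 0.27, both past 1.2 fold. The difference of DKK1 was larger than that of DKK3 by 0.63 on the log2 scale.

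DKKL1, a DKK3-related gene known mainly from the testis, was the only member with a negative difference. Its probe set (16864076, chromosome 19) had log2 levels of 4.99 (control siRNA) and 4.77 (linc00467 siRNA), a log2 difference of -0.22 and a fold of 0.858. In its bin of level, 268 of 4024 probe sets, 6.66%, had a difference as low or lower. Both levels lay inside the range of the OR and KRTAP probe sets, above 71 and 69 of the 86, so whether the probe set measured DKKL1 mRNA or background cannot be told apart.

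DKK2 and DKK4, which like DKK1 bind LRP6, had dim probe sets with no difference at all. DKK2 (16978779, chromosome 4) had a log2 level of 3.13 on both arrays, and DKK4 (17076765, chromosome 8), a known beta-catenin target gene, had 2.82 on both. These levels were at or above 27 and 23 of the 86 OR and KRTAP probe sets on the control siRNA array, well within that range. The same values recurred elsewhere to the last deposited decimal, since 147 other probe sets had the DKK2 value on both arrays and 246 others had the DKK4 value on both. Whether a value shared in this way measures DKK2 or DKK4 RNA was not tested, and no lack of change can be read from it. Values equal to the last decimal on both arrays made up 22.9% of all named probe sets and 37.0% of those in the dimmest bin, where DKK2 and DKK4 lie.

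The Kremen receptors, single-pass membrane proteins that bind DKK1 and DKK2, differed little between the arrays. KREMEN1 (16928716, chromosome 22) had log2 levels of 7.33 (control siRNA) and 7.39 (linc00467 siRNA), a log2 difference of 0.06. Its levels lay above 85 of the 86 OR and KRTAP probe sets, and 29.5% of the named probe sets in its bin had a difference at least as high. KREMEN2 (16815276, chromosome 16) had a log2 level of 6.60 on both arrays, with 3 other probe sets holding that same value on both. This level was at or above 82 of the 86 OR and KRTAP probe sets on each array. Exactly equal values were less common at this level, 16.2% of the named probe sets of the bin that holds KREMEN1 and KREMEN2, and as a difference of 0 may stand for a small difference in signal, no stability of KREMEN2 can be read from it.

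The other receptors of DKK proteins were measured as well, and DKK1's own co-receptors differed by less than 1.2 fold. LRP6 had log2 levels of 8.75 (control siRNA) and 8.91 (linc00467 siRNA), a log2 difference of 0.16. LRP5 had 8.39 and 8.20, a log2 difference of -0.19. CKAP4, described as a further DKK1 receptor on cancer cells, had a log2 difference of -0.09. LRP4, a related receptor best known for agrin and sclerostin, was the 1 of these 4 past 1.2 fold, with log2 levels of 5.81 and 6.20 and a log2 difference of 0.40. Both LRP4 levels, like those of CKAP4, lay under the 95th percentile of the OR and KRTAP probe sets, which was 6.41 on the control siRNA array and 6.38 on the other. Beside the counts of this and the following lists, 8.50% of all named probe sets were past 1.2 fold upward, 9.78% downward and 18.3% in either direction.

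Of 7 measured genes that act on LRP6 at the surface or on its way there, 2 were past 1.2 fold upward and 1 downward, and the median log2 difference was 0.00. TPBG, a membrane inhibitor of Wnt signalling, had a log2 difference of 0.33 and SOSTDC1, a secreted LRP6 antagonist, had 0.32. APCDD1, a membrane Wnt inhibitor, had -0.26, a fold of 0.832, and under quantile normalization 0 of the 7 were past 1.2 fold downward. TPBG and APCDD1 were among the 5 of 7 genes that were not above the OR and KRTAP 95th percentile on both arrays. MESD, the chaperone that LRP5 and LRP6 need for folding, was exactly equal on both arrays. Of 9 genes of the R-spondin axis, which raises Frizzled and LRP6 at the surface, 1 was past 1.2 fold. This was LGR5, an R-spondin receptor, from a log2 level of 8.08 to 7.33. The median of the 9 was 0.00, 4 were exactly equal on both arrays, and 6 were not above the OR and KRTAP 95th percentile.

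Of 16 genes of the LRP6 signalosome, the kinases and scaffolds that gather at activated LRP6, 8 were measured. The 3 past 1.2 fold were all higher, beside the 8.50% of all named probe sets, and 7 of the 8 were above the OR and KRTAP 95th percentile. These 7 lie in the brightest bin of level or the one below it, where 12.3% and 9.05% of named probe sets were past 1.2 fold upward. GRK6, a receptor kinase, had a log2 difference of 0.31, GSK3B, which phosphorylates both LRP6 and beta-catenin, had 0.30, and the scaffold AXIN1 had 0.26. The median of the 8 was 0.15, and CCNY, the cyclin partner of CDK14, had -0.25. The 0.00 of all named probe sets lies among their exactly equal values (22.9%), while 0 of the 8 were exactly equal. No rise of the list can therefore be read from the 0.15. Of 9 other Wnt antagonists measured, secreted ones and the SHISA genes, whose membrane proteins hold Wnt receptors back inside the cell, SHISA3, with a log2 difference of 0.47, was past 1.2 fold upward and SFRP1, with -0.29, downward, and the median was 0.00.

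Target genes of beta-catenin are known to follow the signal that DKK1 opposes, and the share of them past 1.2 fold was near that of all named probe sets. Of 22 measured, 4 were past it, beside 18.3% of all named probe sets and 24.1% of those at or above the median level. Among the 22, 14 were not above the OR and KRTAP 95th percentile on both arrays, so no lack of response can be read from the share. FZD7, a Frizzled receptor, was higher, and LGR5, SOX9 and APCDD1 were lower. All of these but APCDD1 lay above that percentile on both arrays. SOX9, a transcription factor of neural crest and other progenitors, had log2 levels of 8.27 (control siRNA) and 7.76 (linc00467 siRNA). The other 18 lay within 1.2 fold, among them AXIN2, the target gene found in most Wnt-responsive tissues, with log2 levels of 5.04 and 5.08 and a log2 difference of 0.04. NKD1, another feedback inhibitor, had a log2 difference of 0.05, and the median of the 22 was 0.02. AXIN2 and NKD1 were among the 14 with low levels. LGR5, APCDD1, NOTUM, RNF43, ZNRF3, LEF1, MYC, MSX1, MSX2 and CD44 are counted both here and in another list, so the lists are not independent.

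**Figure D3:**
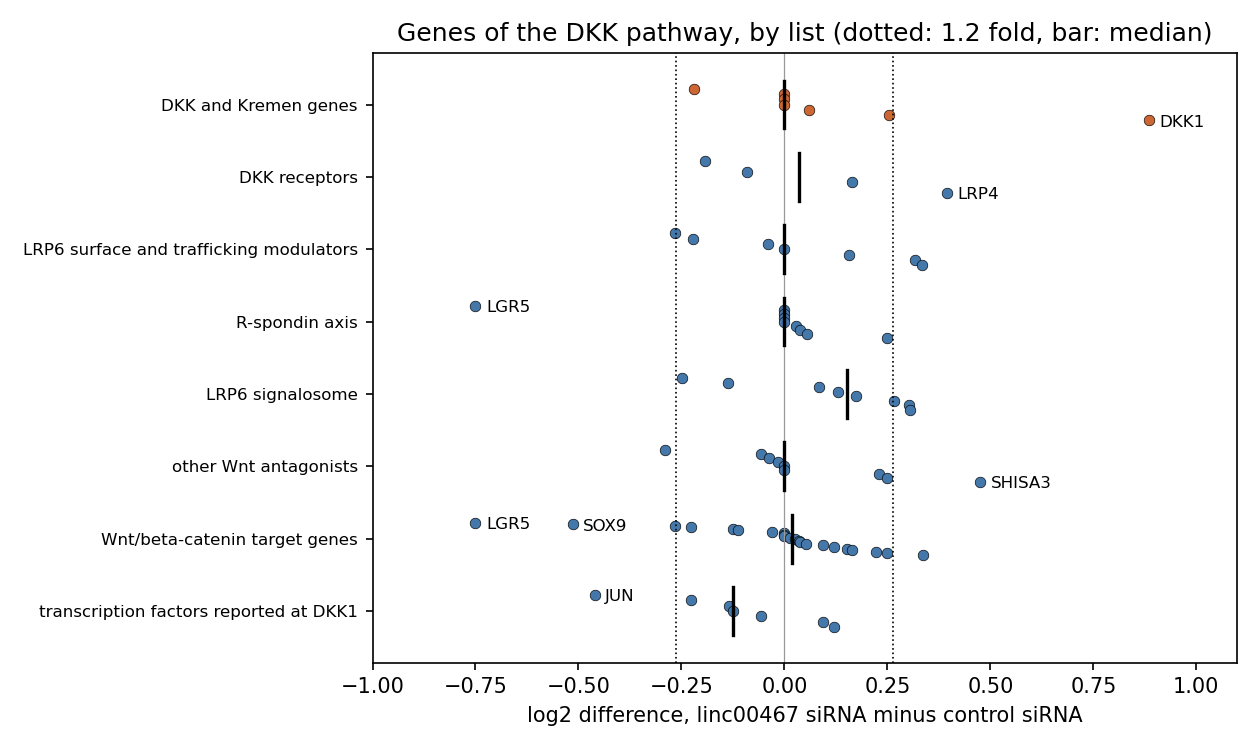
Log2 difference, linc00467 siRNA minus control siRNA, of each measured gene (points) and the median (bar) of the DKK and Kremen genes and of 7 lists of pathway genes, with dotted lines at 1.2 fold. DKK1 at 0.88 is farther from 0 than any gene of the 7 lists, the nearest being LGR5 at -0.75.

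Of 14 transcription factors and chromatin regulators described at the DKK1 gene, 7 were measured and 1 was past 1.2 fold, beside 18.3% of all named probe sets. JUN, an AP-1 subunit described as an activator of DKK1, had log2 levels of 8.19 (control siRNA) and 7.73 (linc00467 siRNA), a log2 difference of -0.46. EZH2, the methyltransferase of Polycomb repressive complexes, had -0.14, and the median of the 7 was -0.13. MYCN and CTNNB1 are unnamed here. Of 9 measured mesenchymal markers, LUM and SNAI2 were past 1.2 fold upward and 0 downward, with log2 differences of 1.56 and 0.33, while TWIST1 had -0.24 and the median of the 9 was 0.00. Of 12 measured neuroblast markers, 1 was past 1.2 fold upward, 3 downward and 8 within it, with a median of -0.17. The summed linear signal of the 9 was 3490 with control siRNA and 4710 with linc00467 siRNA, and that of the 12 neuroblast markers was 12700 and 11000. Within the mesenchymal sum, LUM had linear signals of 283 and 833 and SNAI2 had 2760 and 3470. PRRX1 and CD44, other mesenchymal markers, had log2 levels of 5.18 and 3.81 with control siRNA, inside the OR and KRTAP range. The part of such genes in the DKK1 value was not tested.

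The neighbours of the members on their chromosomes were compared to see whether a difference was shared along the DNA. The nearest named protein-coding genes on each side of DKK1, in the order of the RefSeq table, were A1CF, a factor of mRNA editing, with a log2 difference of -0.12, and PCDH15, a protocadherin, with 0.20. The log2 levels with control siRNA and linc00467 siRNA were 2.95 and 2.83 for A1CF and 5.29 and 5.49 for PCDH15. All 4 lay under the OR and KRTAP 95th percentile, so whether these probe sets could show a shared difference was not tested. Another 2 protein-coding genes before and 1 after DKK1 are unnamed here, so the immediate neighbours were not analysed. DKKL1 at -0.22 lay beside TEAD2, a transcription factor of the Hippo pathway, at -0.23 and the nuclear envelope gene KASH5 at 0.15. KREMEN1 at 0.06 lay between ZNRF3, a ubiquitin ligase that removes Frizzled from the surface, at 0.25, with 1 gene unnamed here in between, and EMID1 at -0.14. The ubiquitin protease gene USP47, next to DKK3, and the transcription factor gene TEAD1, with 2 protein-coding genes unnamed here in between, were exactly equal on both arrays. Of 15 probe sets of the 14 neighbours, only that of NKX6-3 was past 1.2 fold, with 0.29, beside 18.3% of all named probe sets. NKX6-3 is separated from DKK4 by 6 protein-coding genes unnamed here.

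**Figure D4:**
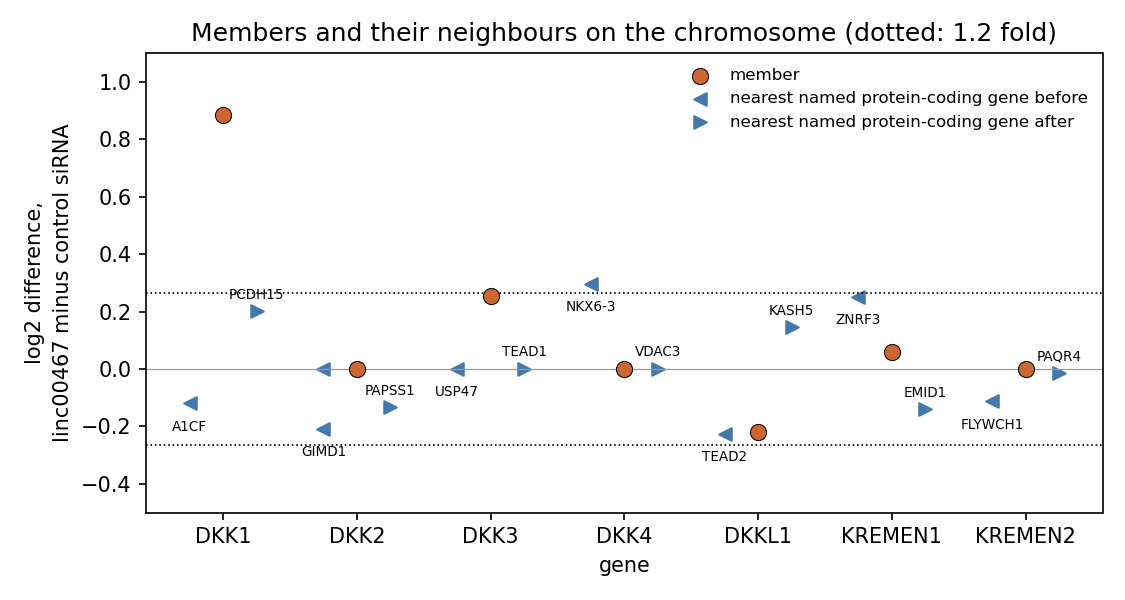
Log2 difference, linc00467 siRNA minus control siRNA, of each member (circles) and of the nearest named protein-coding gene before and after it on the chromosome (triangles, 1 per probe set), with dotted lines at 1.2 fold. DKK1 at 0.88 stands above its neighbours at -0.12 and 0.20, whose levels lay under the OR and KRTAP 95th percentile. DKKL1 and TEAD2 lie at -0.22 and -0.23.

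The 5 named genes whose pair of log2 levels was nearest to that of DKK1 by Euclidean distance were REEP6, LINC01003, CYB5D1, EMP2 and BCAS3. The nearest, REEP6, had log2 levels of 7.70 and 8.41, a difference of 0.71, at a distance of 0.14. LINC01003, a noncoding RNA gene, had 7.57 and 8.29 at a distance of 0.15, and the other 3 lay at 0.24. All 5 were higher with linc00467 siRNA, as follows from the way they were chosen, and 2 arrays give no more than 2 points for such a likeness.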

How the data were processed

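Each siRNA was represented by total RNA of 1 culture on 1 HuGene-2_0-st array. The authors deposited normalized log2 levels for 53617 probe sets. The methods give R with Bioconductor as software, MAS5 appears in the submitters' processing notes, and versions, genome build and the normalization itself were not given in the sources used here. With no scanner values, background treatment stayed as deposited, and precision is limited by having 2 arrays.

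Each log2 difference is linc00467 siRNA minus control siRNA, and folds are 2 raised to it. Symbols came from the platform annotation (1 symbol for 16098 probe sets, 37519 unnamed here), and chromosomes, gene order and promoters from RefSeq (GRCh38.p14). Gene lists used the mean of a gene's probe sets. Values were set beside all named probe sets and beside 4 bins of mean level. The members and lists were chosen with earlier results of these data known. TATAAA and the TCF/LEF motifs were added after the sequences had been seen. Named genes were the members, LINC00467, list members past 1.2 fold (at most 4 per list), chromosome neighbours, the 5 genes nearest to DKK1 and a few markers. LRP5, LRP6, CKAP4, MESD, CCNY, AXIN2, NKD1, EZH2, LUM, SNAI2, TWIST1, PRRX1 and CD44 were named beside this rule, after their values had been seen. Target genes shared between lists were also named. Alternatives were median centring, quantile normalization, lowess (fraction 0.2), a floor at the OR and KRTAP median, the brightest probe set per gene, and cut-offs of 1.1, 1.5 and 1.8 fold. The procedure was tested on simulated data. Python 3.11.15, numpy 2.4.6, pandas 2.3.3, statsmodels 0.14.6 and matplotlib 3.10.9 were used.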

Additional observations from a re-analysis of the deposited data

How the results depend on the processing

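DKK1 kept a log2 difference between 0.88 and 0.91 over the 5 alternatives of scaling, floor and probe set choice. It was the 1 member past the cut-offs of 1.5 and 1.8 fold, beside 3.01% and 0.801% of all named probe sets in either direction. The floor lay below both DKK1 levels and could not change them. Median centring changed no value, the median difference being already 0.00. The members, LINC00467 and the genes of the 7 pathway lists each had 1 probe set, so choosing the brightest changed nothing. Values under these 2 settings are counted as unmoved below but say nothing of stability. The number of members past 1.2 fold was 2 instead of 1 with quantile normalization and 2 with the lowess correction, in both cases through DKK3. The share of all named probe sets under those settings is not given here, so these counts are a description. With a cut-off of 1.1 fold the number of members was 3, through DKK3 and DKKL1, beside 37.3% of all named probe sets in either direction. Of 160 values under an alternative, 152 stayed within the robust SD of comparable probe sets or, for counts, within 1.5 times, and 8 moved. Beside the 3 counts above, these were DKK2 and DKK4, at 0.08 with the floor, because the floor itself differed between the arrays (3.65 and 3.73), and 3 counts of list members under quantile normalization, of 1 gene each. LINC00467 ranged from -0.88 to -0.85. DKK1 and LINC00467, both past 1.2 fold as deposited, kept their sign, while counts and shares have no sign to change. The share of probe sets past 1.2 fold was 21.1% over all probe sets and 24.1% over named ones at or above the median level, beside 18.3%. No paired analysis was possible because there was 1 array per siRNA, and no replicate could be left out. Low signal limits DKK2, DKK4 and DKKL1, and LRP4, TPBG, APCDD1, AXIN2 and NKD1 among the pathway genes. It also limits LINC00467 on the linc00467 siRNA array, and A1CF and PCDH15 among the neighbours.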
